A study of Mus musculus with 12 samples.

Results

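The interleukin 6 family genes examined here were 8 in number: the receptor genes Osmr, Lifr, Il6st, Il6ra and Cntfr and the cytokine genes Osm, Lif and Il6. They were chosen by name, and all 8 were measured, each by 1 probe set, among 19938 genes. Expression had been measured on 12 single-colour arrays of muscle satellite cells, the stem cells of skeletal muscle, sorted for green fluorescence from C57BL/6 mice heterozygous for a Pax7-ZsGreen reporter. The 4 stages, with 3 arrays each, were fetal (E17.5, forelimb and hindlimb, 4 mice), adolescent (postnatal day 21, hindlimb, 6 mice), adult (2 to 3 months, hindlimb, 8 mice) and aged (over 1 year, hindlimb, 8 mice). Sort gates were set for each age against wild-type SV129 cells. The mice of a stage were pooled, all groups carried the reporter allele and none had received a treatment that the labels name. Fetal cells differed from the later stages in limb as well as in age, and these cannot be told apart.

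The cytokines of this family share a signalling subunit, gp130, which is encoded by Il6st. Interleukin 6 reaches gp130 through its own receptor Il6ra, leukaemia inhibitory factor through a dimer of gp130 with Lifr, and oncostatin M, in the mouse mainly, through gp130 with Osmr, while ciliary neurotrophic factor first binds Cntfr. The receptors act through Janus kinases and mainly Stat3, and Socs3 limits the signal. In muscle, oncostatin M is known to promote satellite cell quiescence, whereas interleukin 6 and leukaemia inhibitory factor act on the growth of myoblasts.

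The 95th percentile of 1210 probe sets for smell and pheromone receptors served as a measure of background, and 0 of 10 satellite cell markers, among them Pax7, Myf5 and Calcr, were at or below it on all arrays. Their list averaged 9.40 in fetal, 10.58 in adolescent, 10.82 in adult and 10.78 in aged cells. That background was not equal on all arrays. Adult replicates 2 and 3 had means of 4.47 and 4.50 for these probe sets and aged replicate 1 had 4.31, while the other 9 arrays lay between 3.79 and 3.91. Adult replicate 1 stood apart in its cycling genes, with a list mean of 8.17 against 5.82 and 5.69 on adult replicates 2 and 3. Aged replicate 1 had 6.61 against 5.58 and 5.35 on aged replicates 2 and 3. Between stages the cycling list averaged 10.55 in fetal, 9.94 in adolescent, 6.56 in adult and 5.85 in aged cells. In adult against adolescent cells 5 of 5 cycling genes fell. The part of cycling in the stage differences below was not tested. Endothelial markers also differed between stages, and their values are given beside the receptors below. Since the cells were read in bulk, more cells of a type and more RNA per cell cannot be told apart.

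The promoters of 3 receptor genes that were higher in aged than in fetal cells are shown because these genes are followed below. Each is 300 bases long, from 250 bases before to 50 after a transcription start in RefSeq (build GRCm38.p6), read 5′ to 3′ on the strand of the gene, with any motif match in capitals. The motifs searched on both strands were the STAT site TTCNNNGAA, the AP-1 site TGANTCA and an NF-kB site (GGGA, any base, then TTTCC).
Osmr (chr15:6874264-6874563, minus strand): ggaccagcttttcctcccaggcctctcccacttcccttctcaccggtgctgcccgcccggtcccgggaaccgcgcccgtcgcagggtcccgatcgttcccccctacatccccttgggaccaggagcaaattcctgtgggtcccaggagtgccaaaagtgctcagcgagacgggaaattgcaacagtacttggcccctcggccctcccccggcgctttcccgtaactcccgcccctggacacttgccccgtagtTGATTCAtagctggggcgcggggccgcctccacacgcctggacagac
Il6st (chr13:112463820-112464119, plus strand): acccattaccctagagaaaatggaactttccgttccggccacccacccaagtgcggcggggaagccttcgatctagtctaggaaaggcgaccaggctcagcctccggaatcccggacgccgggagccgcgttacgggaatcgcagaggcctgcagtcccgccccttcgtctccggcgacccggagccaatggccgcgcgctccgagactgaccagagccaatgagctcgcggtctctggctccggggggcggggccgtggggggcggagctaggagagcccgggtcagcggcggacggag
Il6ra (chr3:89913147-89913446, minus strand): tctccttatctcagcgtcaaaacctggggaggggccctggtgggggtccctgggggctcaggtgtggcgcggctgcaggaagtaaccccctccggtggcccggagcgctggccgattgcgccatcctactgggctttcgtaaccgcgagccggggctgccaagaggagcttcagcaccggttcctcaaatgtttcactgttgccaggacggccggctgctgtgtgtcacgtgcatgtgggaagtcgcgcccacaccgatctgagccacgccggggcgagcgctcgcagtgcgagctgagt
The Osmr window held 1 match, to the AP-1 letters (TGATTCA), beginning 3 bases after the transcription start, and the other 2 windows held none. Of 32851 promoter windows of this length, 8.30% held the STAT letters, 7.81% the AP-1 letters and 0.411% the NF-kB letters. Windows were found for 7 of the 8 genes. Osmr and Lifr are neighbouring protein-coding genes on chromosome 15, and Osm and Lif are neighbours on chromosome 11.

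By an F-test over the 4 stages in limma, 6 of the 8 genes had an adjusted p under 0.05, the threshold used throughout, where 41.6% of all genes did. They were Osmr, Il6st, Il6ra, Il6, Cntfr and Lifr. The plot of the 8 genes by stage shows every array.

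**Figure D1:**
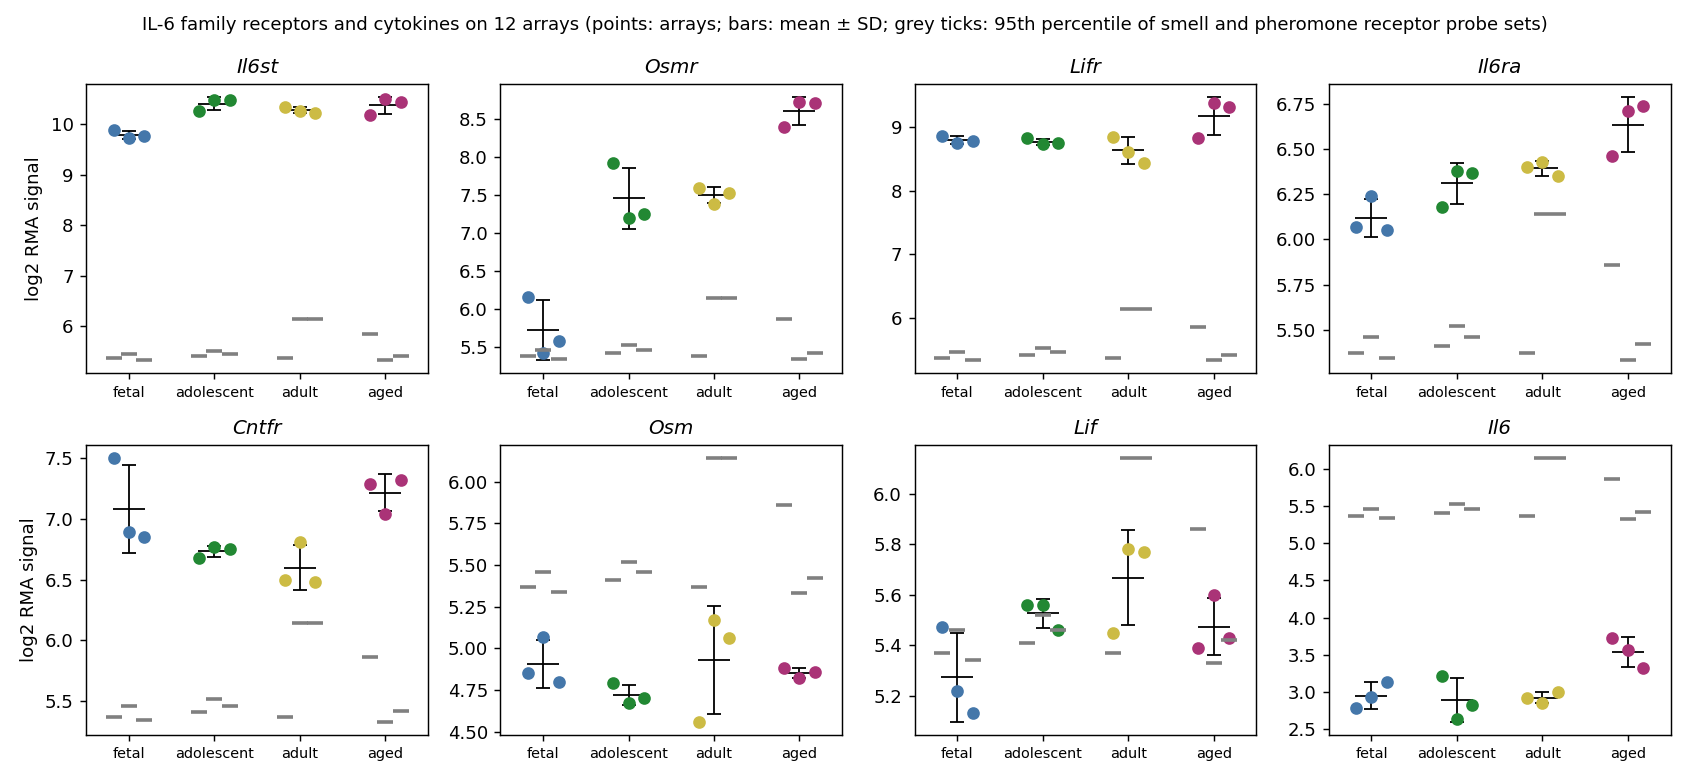
Log2 RMA signal (y axis) of the 8 genes at each stage (x axis), with points for arrays, bars for the mean ± SD of 3 arrays and grey ticks for each array's 95th percentile of smell and pheromone receptor probe sets. Osmr rises in 2 steps, Il6st is lowest on the 3 fetal arrays, and Osm and Il6 lie below the grey ticks on all 12 arrays.

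Il6st, the shared signal transducer, was lower in fetal cells than at any later stage. Its log2 signal was 9.89, 9.74 and 9.77 on the fetal arrays, 10.26, 10.48 and 10.48 on the adolescent arrays, 10.34, 10.27 and 10.23 on the adult arrays and 10.19, 10.50 and 10.45 on the aged arrays. The 3 fetal arrays lay below all 9 others, and the later stages overlapped. In adolescent cells Il6st exceeded its fetal level 1.52-fold, a log2 difference of 0.60 ± 0.11 (limma adjusted p = 0.00137). Here and below the error is the SE of the fit over all 12 arrays, with n = 3 per stage. Against fetal cells Il6st was also 1.39-fold higher in adult cells (0.48 ± 0.11, adjusted p = 0.00358) and 1.49-fold higher in aged cells (0.58 ± 0.11, adjusted p = 8.67e-04). Among the later stages no pair passed, with differences of -0.13 ± 0.11 for adult against adolescent, 0.10 ± 0.11 for aged against adult and -0.03 ± 0.11 for aged against adolescent cells. In adolescent against fetal cells 9 of 10 endothelial markers rose and 0 fell, and 5 of 6 pericyte and smooth muscle markers rose and 1 fell. At this step 10 of 10 satellite cell markers rose and 0 fell, and 3 of 6 mature myofibre markers rose and 0 fell. The array highest in Il6st within a stage was also the highest in the endothelial mean in 3 of 4 stages. The same held for the pericyte and smooth muscle list and for the mature myofibre list. For the satellite cell list it held in 1 of 4 stages. The adult endothelial means were close (7.82 to 7.89). The part of these cells in the Il6st values was not tested.

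Osmr, the oncostatin M receptor subunit, differed most among the 8 genes, with 2.90 on the log2 scale between its highest and lowest stage means. It was 6.16, 5.41 and 5.57 on the fetal arrays, 7.92, 7.20 and 7.25 on the adolescent arrays, 7.59, 7.38 and 7.53 on the adult arrays and 8.40, 8.73 and 8.71 on the aged arrays. The fetal arrays were lowest, the aged arrays highest, and adolescent and adult arrays overlapped between them. Fetal replicate 2 was the one array on which Osmr did not exceed the 95th percentile of the background probe sets (5.46), so a fold against fetal cells may be understated. Osmr was 3.35-fold higher in adolescent than in fetal cells (1.74 ± 0.21, limma adjusted p = 6.36e-05), a rise matched or exceeded by 167 of 19938 genes, itself counted. It did not pass in adult against adolescent cells (0.04 ± 0.21, adjusted p = 0.889). In aged against adult cells it was 2.16-fold higher (1.11 ± 0.21, adjusted p = 0.0139), a rise matched or exceeded by 119 of 19938 genes, itself counted.

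The aged and fetal ends of the series were 7.46-fold apart for Osmr (2.90 ± 0.21, limma adjusted p = 3.05e-07), with aged cells higher. Genes that rose both in adolescent against fetal and in aged against adult cells numbered 271 (1.36% of those tested), and Osmr was the one among the 8. The aged against adult difference kept its size but missed the threshold in 4 of 14 alternatives. It was 1.05 without adult replicate 2 (adjusted p = 0.0647) and 1.05 without aged replicate 2 (adjusted p = 0.0813). It was 1.06 without aged replicate 3 (adjusted p = 0.0750). It was 1.13 without the 3 arrays of high background, a setting that left adult replicate 1 alone in its stage. Without adult replicate 1 it was 1.16 (adjusted p = 0.00510).

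Endothelial markers moved with Osmr in some comparisons and not in others. Their list of 10 genes, which includes Pecam1, Cdh5 and Kdr, had means of 6.90 to 7.77 on fetal, 8.51 to 9.11 on adolescent, 7.82 to 7.89 on adult and 8.68 to 9.26 on aged arrays. In adolescent against fetal cells 9 of 10 rose and in aged against adult cells 7 of 10 rose, and 0 fell in either. In adult against adolescent cells 7 of 10 fell and 0 rose, a step at which Osmr did not pass. In aged against adolescent cells 0 of 10 rose and 0 fell, while Osmr was 2.23-fold higher (limma adjusted p = 0.00194). In adult against fetal cells 3 rose and 0 fell, while Osmr was 3.45-fold higher. In aged against fetal cells 10 rose and 0 fell. In all 4 stages the array with the highest Osmr was also the one with the highest endothelial mean. The same held in 4 of 4 stages for the list of 6 pericyte and smooth muscle markers. The adult endothelial means were close, at 7.89, 7.82 and 7.87 on replicates 1, 2 and 3. Adult replicate 1, the adult array highest in Osmr, was highest in Pecam1, Cdh5, Ptprb and Emcn. It was the lowest adult array in Kdr, Flt1, Tek, Cldn5, Esam and Tie1. No endothelial or pericyte marker stayed at or below the background percentile on all arrays, and the part of these cells in the Osmr values was not tested. Among 8 macrophage markers, 0 rose and 0 fell in aged against adult cells by limma's test, whereas 4 rose and 0 fell in aged against fetal cells and 2 rose and 0 fell in aged against adolescent cells. The array highest in Osmr was highest in the macrophage mean in 1 of 4 stages.

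**Figure D2:**
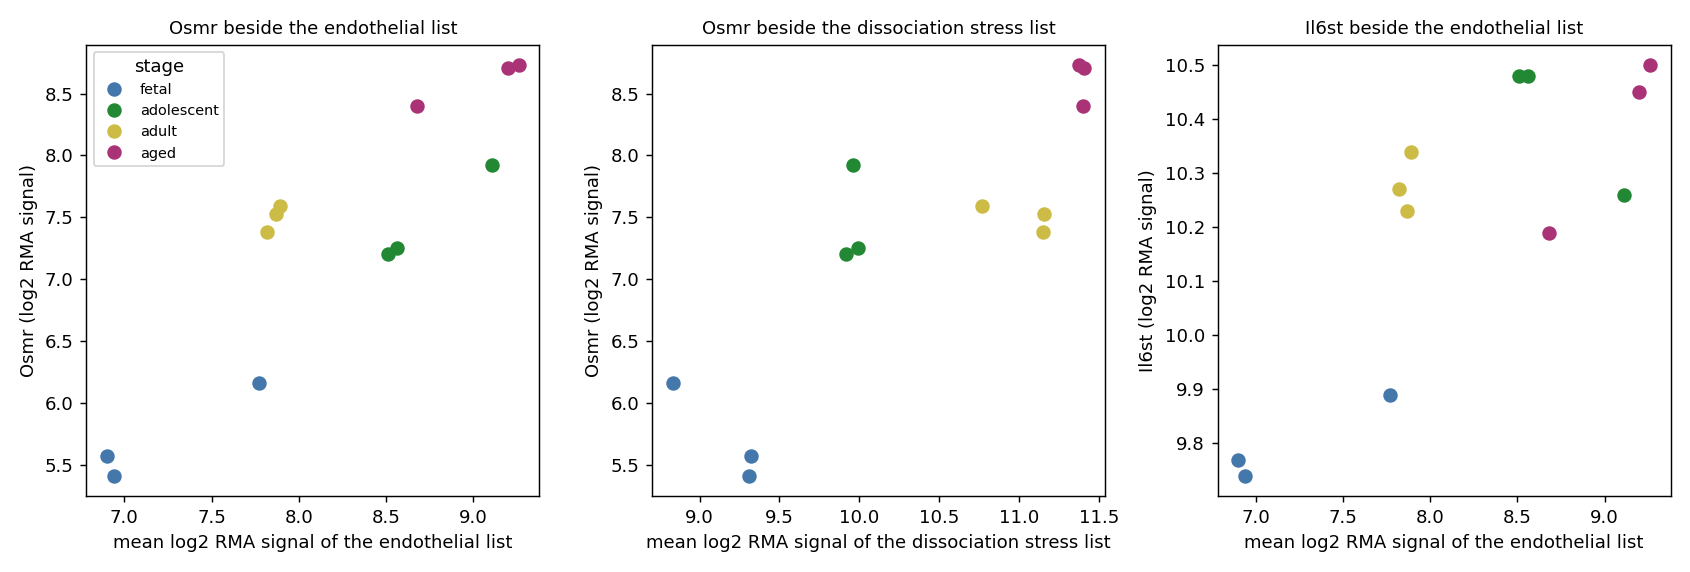
Osmr (left and middle) and Il6st (right), as log2 RMA signal (y axes), against the mean log2 RMA signal of 10 endothelial markers or 10 dissociation stress genes (x axes), with 1 point for each of 12 arrays coloured by stage. The adult arrays have endothelial means of 7.82 to 7.89, below the adolescent 8.51 to 9.11, at overlapping Osmr levels.

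Lifr, the receptor subunit for leukaemia inhibitory factor, had stage means of 8.80 in fetal, 8.77 in adolescent, 8.63 in adult and 9.18 in aged cells. Its values were 8.87, 8.75 and 8.78 on fetal, 8.83, 8.74 and 8.76 on adolescent, 8.85, 8.62 and 8.44 on adult and 8.84, 9.39 and 9.32 on aged arrays. Aged replicates 2 and 3 were the highest of the 12, while aged replicate 1 lay among the younger arrays. The F-test gave an adjusted p of 0.0379, which missed the threshold (0.0539 to 0.164) when any array other than adult replicate 1 or aged replicate 1 was left out. No pair of stages passed. Aged cells differed by 0.38 ± 0.14 from fetal (limma adjusted p = 0.0593), by 0.55 ± 0.14 from adult (adjusted p = 0.0599) and by 0.41 ± 0.14 from adolescent cells (adjusted p = 0.0697). The aged against adult difference was 0.72 without aged replicate 1 (adjusted p = 0.00471). Without adult replicate 1 it was 0.65 (adjusted p = 0.00655). It was 0.50 without the 3 arrays of high background, where adult replicate 1 stood alone in its stage. Those 3 arrays were the lowest of their stages in Lifr. Without aged replicate 1 aged cells also passed against fetal (0.55, adjusted p = 0.00338) and adolescent cells (0.58, adjusted p = 0.00512). With quantile normalization the adjusted p was 0.0466 against adult, 0.00560 against fetal and 0.00998 against adolescent cells. Of 14 alternatives, aged cells passed in 5 against adult, 4 against fetal and 5 against adolescent cells. As with Osmr, the highest Lifr array of each stage had the highest endothelial mean in 4 of 4 stages. The same held in 4 of 4 stages for the pericyte and smooth muscle list. The adult endothelial means were close (7.82 to 7.89).

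Il6ra, which binds interleukin 6 itself, showed a gradual order of stage means from fetal to aged. It was 6.07, 6.24 and 6.05 on fetal, 6.18, 6.38 and 6.37 on adolescent, 6.40, 6.43 and 6.35 on adult and 6.46, 6.71 and 6.74 on aged arrays. It exceeded the background percentile on 12 of 12 arrays, though that percentile was 6.14 on adult replicates 2 and 3. Counted from each array's background mean, Il6ra averaged 2.29 in fetal, 2.41 in adolescent, 2.13 in adult and 2.65 in aged cells. On that measure adult cells were lowest. Neighbouring stages did not differ past the threshold, with 0.19 ± 0.11 for adolescent against fetal, 0.08 ± 0.11 for adult against adolescent and 0.24 ± 0.11 for aged against adult cells. The ends of the order did, aged cells being 1.43-fold higher than fetal cells (0.52 ± 0.11, limma adjusted p = 0.00171) and 1.26-fold higher than adolescent cells (0.33 ± 0.11, adjusted p = 0.0469). The second of these missed the threshold in 7 of 14 alternatives, among them the leaving out of any 1 adolescent array, of aged replicate 2 or of aged replicate 3 (adjusted p from 0.0835 to 0.182).

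Cntfr, the receptor for ciliary neurotrophic factor, had its lowest mean in adult cells (6.60), with 7.08 in fetal, 6.73 in adolescent and 7.21 in aged cells. Its values were 7.50, 6.89 and 6.85 on fetal, 6.68, 6.77 and 6.75 on adolescent, 6.50, 6.81 and 6.48 on adult and 7.29, 7.04 and 7.32 on aged arrays. All aged arrays exceeded all adolescent and adult arrays, whereas fetal replicate 1 stood above the other fetal arrays. That array was also the highest fetal array in the fibroblast mean (9.76 against 8.89 and 8.96) and the endothelial mean (7.77 against 6.94 and 6.90). Its mature myofibre mean was 8.09 against 7.18 and 7.15. The part of such cells in the Cntfr values was not tested. Cntfr was 1.40-fold lower in adult than in fetal cells (-0.49 ± 0.16, limma adjusted p = 0.0303), which became -0.28 without fetal replicate 1 (adjusted p = 0.114) and -0.43 without adult replicate 3 (adjusted p = 0.105). The F-test gave an adjusted p of 0.0216, and it missed the threshold without adult replicate 3 (0.0599) and without aged replicate 3 (0.0622). Aged against adult cells differed by 0.62 ± 0.16, just short of the threshold (adjusted p = 0.0587), and by 0.57 without adult replicate 1 (adjusted p = 0.0258).

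The cytokine genes gave low signals. Osm, encoding oncostatin M, was 4.85, 5.07 and 4.80 on fetal, 4.79, 4.67 and 4.70 on adolescent, 4.56, 5.17 and 5.06 on adult and 4.88, 4.82 and 4.86 on aged arrays. On 0 of 12 arrays did it exceed the 95th percentile of the background probe sets, and it did not differ among stages past the threshold (adjusted p = 0.538). The 2 highest adult values were those of the arrays with high background.

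Lif, encoding leukaemia inhibitory factor, lay at the edge of detection. It was 5.47, 5.22 and 5.13 on fetal, 5.56, 5.56 and 5.46 on adolescent, 5.45, 5.78 and 5.77 on adult and 5.39, 5.60 and 5.43 on aged arrays. It exceeded the background percentile on 7 of 12 arrays, 1 of 3 adult arrays among them. Lif passed in adult against fetal cells alone (0.40 ± 0.12, limma adjusted p = 0.0209), with overlapping arrays. The difference was 0.18 without the 3 arrays of high background, where adult replicate 1 stood alone in its stage. It missed the threshold without fetal replicate 2 or 3 and without adult replicate 2 or 3.

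Il6, encoding interleukin 6, was below the background mean on every array. Its values were 2.79, 2.93 and 3.14 on fetal, 3.21, 2.64 and 2.83 on adolescent, 2.92, 2.85 and 3.00 on adult and 3.72, 3.57 and 3.33 on aged arrays. The 3 aged arrays were the highest of the 12, and the difference passed in aged against adult (adjusted p = 0.0461), adolescent (adjusted p = 0.00929) and fetal cells (adjusted p = 0.00849) by limma's test. Between 6.86% and 42.1% of the background probe sets lay below Il6 on an array, so no fold is given. The aged against adult call missed the threshold in 9 of 13 alternatives, among them the leaving out of any array of these stages other than adult replicate 1.

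By comparison, members passed as follows. In adolescent against fetal cells 2 of 8 rose and 0 fell, where 18.8% of all genes passed (10.1% higher, 8.68% lower), and the median difference was 0.08 against 0.02 over all genes. The arrays of these stages did not overlap for Osmr, Il6st, Cntfr and Osm, as for 41.6% of all genes. Osm exceeded the background percentile on no array, so its place among them is not a measured change in level. In adult against adolescent cells 0 of 8 passed by limma's test, and 0 had an unadjusted p under 0.05, where 19.8% of all genes passed (4.56% higher, 15.2% lower) and the arrays of 36.0% did not overlap. There 909 genes were higher and 3032 lower in adult cells, against 2233 higher and 2076 lower once arrays had been centred on their medians.

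In aged against adult cells, where 3.50% of all genes passed (3.28% higher, 0.216% lower), 2 of 8 rose and 0 fell (Osmr and Il6), with a median of 0.40 against -0.01 over all genes. Il6 lay below the background mean on every array, so its calls here and below are not measured changes in level. The counts of members and of all genes depended on single arrays, 697 genes having passed with all of them. Without adult replicate 1, 5 of 8 members and 7844 of 19938 genes passed. Without adult replicate 2, aged replicate 2 or aged replicate 3, 0 of 8 members and 269, 214 and 216 genes passed. Without adult replicate 3 the counts were 1 and 289, and without aged replicate 1 they were 2 and 2214. The arrays of these stages did not overlap for Osmr, Il6ra, Cntfr and Il6, as for 16.0% of all genes. In adult against fetal cells Osmr, Il6st and Lif rose and Cntfr fell, where 42.5% of genes passed (19.1% higher, 23.4% lower) and 47.9% did not overlap. In aged against adolescent cells Osmr, Il6ra and Il6 rose and 0 members fell, where 19.6% passed (8.08% higher, 11.5% lower) and 38.4% did not overlap. In aged against fetal cells Osmr, Il6st, Il6ra and Il6 rose and 0 fell, where 35.8% passed (16.4% higher, 19.4% lower) and 48.9% did not overlap. Centring arrays on their medians turned the balance of all genes in 3 further comparisons. It gave 1688 higher and 2170 lower in adolescent against fetal cells in place of 2008 and 1731. In adult against fetal cells it gave 4550 and 4335 in place of 3806 and 4659, and in aged against adolescent cells 2008 and 1917 in place of 1611 and 2288. These comparisons share arrays and are not independent of one another.

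**Figure D3:**
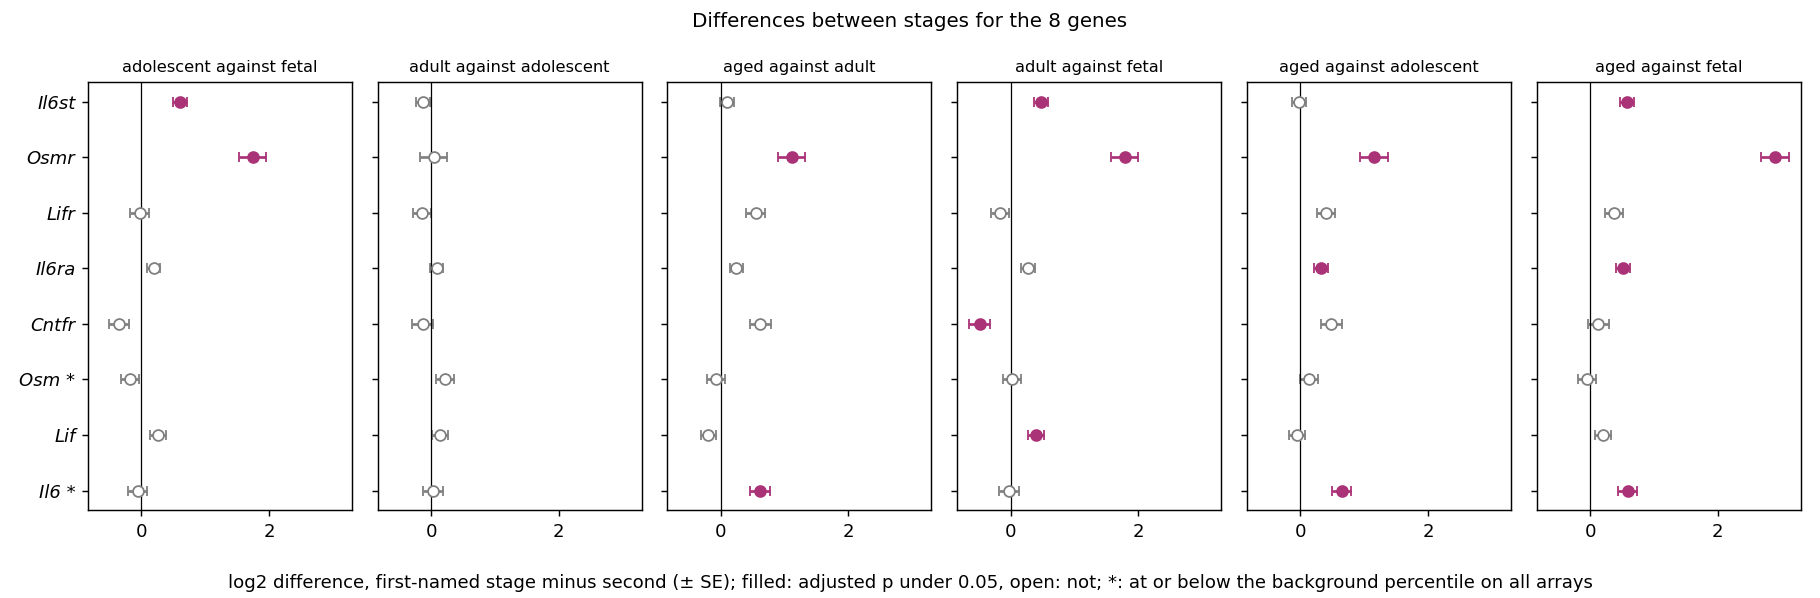
Log2 differences ± SE (x axes, first-named stage minus second) of the 8 genes (rows) in the 6 pairs of stages, with filled points where the adjusted p was under 0.05. Adult against adolescent cells have no filled point, and aged against fetal cells have 4, the farthest from 0 being Osmr at 2.90. An asterisk marks Osm and Il6, which were not above the background percentile on any array, so their differences are not measured changes in level.

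The genes whose pattern over the 12 arrays was most like each receptor were named by Pearson correlation among 12107 genes with a highest stage mean of at least 6. The correlations describe likeness alone, since the arrays of a stage resemble each other. For Osmr they were Fas (0.986), a death receptor, Epas1 (0.985), a hypoxia-responsive transcription factor, and Cxcl12 (0.983), a chemokine. Epas1 had stage means of 6.52 in fetal, 8.95 in adolescent, 8.57 in adult and 9.83 in aged cells. For Il6st they were Clock (0.983), a circadian transcription factor, Nt5dc3 (0.980) and Pam (0.980), an enzyme that amidates peptides. Adck2 (0.968), Ttc33 (0.966) and Zzef1 (0.965) were nearest to Il6ra. Akap10 (0.955), a kinase anchoring protein, Lmbr1 (0.948) and Nbea (0.944) were nearest to Lifr. Cntfr had looser neighbours in Spock2 (0.897), Efemp1 (0.892) and Gja1 (0.862), the gap junction protein connexin 43.

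Other ligands and receptors of the family were listed as 12 genes, of which 9 were analysed here. Of these 2 differed among stages, where 41.6% of all genes did. Clcf1, a cytokine that signals through Cntfr, Lifr and gp130, had values of 5.73, 6.01 and 5.91 on fetal, 8.00, 7.99 and 7.99 on adolescent, 8.93, 9.46 and 9.34 on adult and 9.20, 9.11 and 9.27 on aged arrays. No adult or aged array overlapped an adolescent or fetal one. Clcf1 was 4.31-fold higher in adolescent than in fetal cells (2.11 ± 0.13, limma adjusted p = 1.91e-07) and 10.3-fold higher in adult than in fetal cells (3.36 ± 0.13, adjusted p = 1.50e-09). It did not pass in aged against adult cells (-0.05 ± 0.13).

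Ctf1, encoding cardiotrophin 1, was lower in adolescent than in fetal cells (-0.43 ± 0.12, limma adjusted p = 0.0195) and higher in aged than in adolescent cells (0.37 ± 0.12, adjusted p = 0.0424). Il27 and Il31 were higher in adult than in fetal cells (0.55 ± 0.17 and 0.44 ± 0.15), and Il27 also in adult than in adolescent cells (0.52 ± 0.17), with their highest values on the 2 adult arrays of high background. In aged against adult cells 0 of the 9 passed by limma's test, where 3.50% of all genes did, and 1 had an unadjusted p under 0.05.

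Of 11 listed signal transducers 10 were analysed here and 5 differed among stages, near the 41.6% of all genes. Stat3, the main transcription factor below gp130, stayed between 9.11 and 9.51 on all arrays and passed in no pair of stages, aged against fetal cells differing by 0.28 ± 0.10 (limma adjusted p = 0.0515). Stat5a was 1.96-fold higher in adolescent than in fetal cells (0.97 ± 0.10, adjusted p = 1.00e-05), and Stat5b rose by less (0.42 ± 0.08). Gab1, an adaptor of receptor signalling, rose at the same step (0.30 ± 0.09). Ptpn11, a phosphatase that links gp130 to the ERK cascade, was lower in adult than in adolescent cells (-0.44 ± 0.10). In aged against adult cells 0 of 10 passed by limma's test, where 3.50% of all genes did, and 3 had an unadjusted p under 0.05.

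Of 9 feedback and shedding genes, all measured, 4 differed among stages, near the 41.6% of all genes. Socs3, the inhibitor that binds gp130, was 8.66, 9.36 and 9.36 on fetal, 8.67, 8.79 and 8.83 on adolescent, 9.68, 9.90 and 9.80 on adult and 10.88, 10.37 and 10.59 on aged arrays. Adult arrays lay above all younger arrays and aged arrays above all adult ones. Socs3 was higher in adult than in adolescent cells (1.03 ± 0.18, limma adjusted p = 0.00214) and 1.77-fold higher in aged than in adult cells (0.82 ± 0.18, adjusted p = 0.0266). Socs1 passed in aged against fetal cells alone (0.31 ± 0.10), and Socs2 in no pair. Cish, a Stat5 target, was lower in adolescent than in fetal cells (-0.55 ± 0.13). Adam17, the protease that sheds Il6ra, was lower in adult than in adolescent cells (-0.73 ± 0.11). Adam10 fell at the same step (-0.59 ± 0.15), with 8.58 and 8.40 on the 2 adult arrays of high background and 9.10 on adult replicate 1.

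Of 15 genes known to respond to these cytokines, all measured, 14 differed among stages, where 41.6% of all genes did. In aged against fetal cells 11 rose and 2 fell, where 16.4% of all genes were higher and 19.4% lower. The median difference was 0.94 against 0.02 over all genes. Cebpd, a transcription factor induced through Stat3, averaged 5.81 ± 0.14 in fetal, 7.44 ± 0.041 in adolescent, 9.34 ± 0.060 in adult and 9.95 ± 0.31 in aged cells (SD, n = 3 each) and rose at each step, by 1.64 ± 0.14, 1.90 ± 0.14 and 0.60 ± 0.14. Bcl6, a transcriptional repressor, was 9.51-fold higher in aged than in fetal cells (3.25 ± 0.10, limma adjusted p = 2.22e-10), Junb 6.30-fold (2.65 ± 0.16) and Cebpb 4.76-fold (2.25 ± 0.16).

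Some response genes moved otherwise. Pim1, Timp1 and Ccnd1 were singled out after their values were seen. Pim1, a survival kinase, passed only in the comparisons with aged cells, being 1.92-fold higher in aged than in adult cells (0.94 ± 0.13, limma adjusted p = 0.00245). Timp1, an inhibitor of matrix proteases, was 4.39-fold lower in aged than in fetal cells (-2.13 ± 0.24). In aged against adult cells 2 of the 15 response genes rose and 1 fell, where 3.28% of all genes were higher and 0.216% lower. The 1 that fell was Ccnd1 (-0.74 ± 0.17, limma adjusted p = 0.0318), which had its highest stage mean in adolescent cells (11.06). Genes of dissociation stress, a list of 10 that shares Fos and Junb with the response genes, had means of 8.83 to 9.32 on fetal, 9.92 to 9.99 on adolescent, 10.77 to 11.16 on adult and 11.38 to 11.41 on aged arrays. In aged against fetal cells 10 of 10 rose, and their part in the response genes was not tested.

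**Figure D4:**
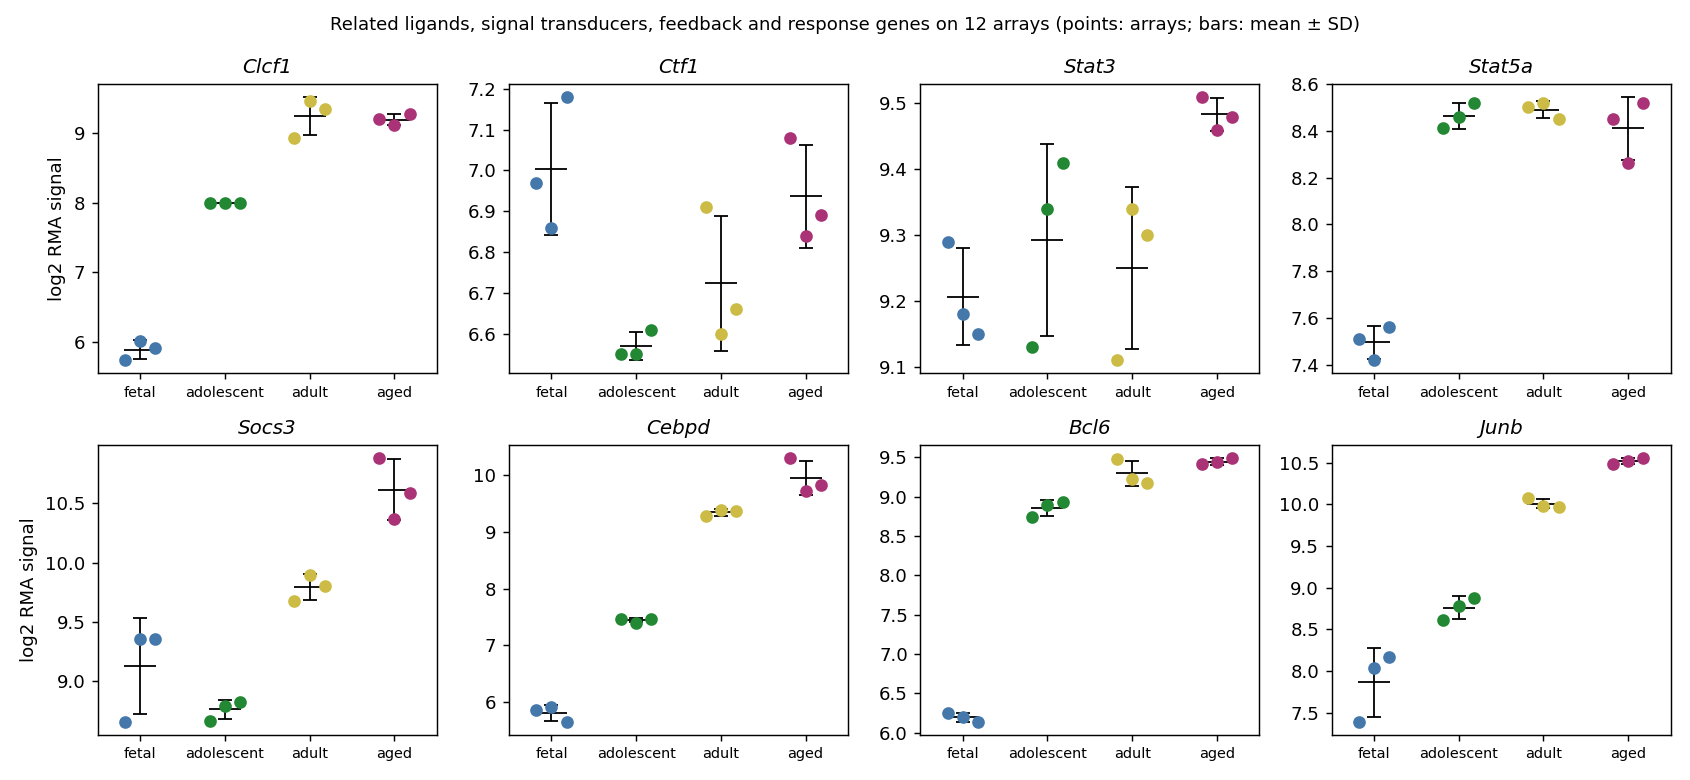
Log2 RMA signal (y axes) at each stage (x axes) of 8 related ligand, transducer, feedback and response genes, with points for arrays and bars for the mean ± SD of 3 arrays. Clcf1, Cebpd, Bcl6 and Junb are lowest on the fetal arrays, Stat3 spans 9.11 to 9.51, and Socs3 is highest on the aged arrays.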

How the data were processed

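The submitters' processing notes name RMA and the software Affymetrix Expression Console (version 1.2.1.20). Values deposited by the authors are log2 signals per probe set, used here without change, from 35556 probe sets on 12 arrays, with 0 value columns left unused. The genome build is not given in the sources used here, and scanner files were not used. The number of arrays limits the precision, and the level of 1 probe set was not compared with that of another.

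Probe sets with 1 symbol (21789) gave 19938 genes by the brightest probe set. All 12 arrays entered 1 model with a mean per stage in limma 3.58.1 (R 4.3.3), and p was adjusted by Benjamini-Hochberg over all genes. Nothing states that replicates were separate pools, so a p-value reflects only how these arrays spread, possibly a technical spread. The method was tested on simulated data. Equal replicate numbers deviated together in adolescent and adult arrays (r = 0.362, 0.317 and 0.239). In fetal and adolescent arrays r was 0.176, 0.197 and 0.0293. Over all pairs of stages the median r was -0.0014 for equal and -0.011 for unequal numbers. Unequal numbers of adolescent and adult arrays reached similar values (0.293 and 0.240), and no label states a pairing. A block left the count of members in adult against adolescent cells at 0.

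Members and lists were chosen with earlier results of these data known. Genes named are the 8 members, the 3 nearest by correlation to each that differed among stages with a stage mean of at least 6, up to 4 of each list with the smallest F-test p, and the Stat and Socs genes. Predicted genes, small RNAs and smell and pheromone receptors were left out of the correlations. Some listed genes were not analysed here. Alternatives were quantile normalization, centring, a filter on genes under 6, the mean of probe sets, a trended and robust variance, a replicate block, the 2 stages alone and leaving out each array. Leaving out the 3 arrays of high background was added after seeing the data. It left adult replicate 1 as the only adult array, so its differences are given without p-values.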

Additional observations from a re-analysis of the deposited data

How the results depend on the processing

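Of 654 recomputed member differences, 598 stayed on the same side of the threshold, 32 lost the call, 24 gained one and 0 reversed as called values. In 37 the sign changed where neither value was called. Osmr kept its call in adolescent against fetal, adult against fetal, aged against adolescent and aged against fetal cells in every alternative, as did Il6st in its 3 comparisons with fetal cells. The cause of the changes below was not tested.

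Members called in aged against adult cells (2) numbered 1 with arrays centred on their medians and 1 with a replicate block. They numbered 1 with only these stages in the fit, and 0 to 5 when an array was left out. In adult against fetal cells (4) they numbered 2 with only these stages, and 2 to 4 without an array. In aged against adolescent cells (3) they numbered 5 after centring and 1 to 4 without an array. In adult against adolescent cells (0) they numbered 0 to 1, the 1 being Osm without adult replicate 1 (0.40, adjusted p = 0.00578).

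Over all genes, without the 3 arrays the counts were 5904 against 3739 in adolescent against fetal, 1586 against 3941 in adult against adolescent, 1608 against 697 in aged against adult and 6351 against 3899 in aged against adolescent cells and 5878 against 8465 in adult against fetal cells. With only the compared stages they were 2145 in adult against adolescent and 176 in aged against adult cells. Leaving out an array gave 6665 to 14192 genes among stages (8293), 1876 to 10757 in adult against adolescent, 214 to 7844 in aged against adult and 5923 to 12968 in adult against fetal cells, each highest without adult replicate 1. It gave 2690 to 3330 in adolescent against fetal and 2693 to 4144 in aged against adolescent cells. Centring moved the median of all genes in adult against adolescent cells by 0.11.

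With the replicate block the F-test of Lifr gave an adjusted p of 0.0754 and the Il6 difference of aged against adult cells 0.0763, and no other member lost or gained a call. With genes under 6 left out, Osm, Lif and Il6 had no value. Signals near background limit what can be said of Osm, Lif and Il6.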
